A study of Mus musculus with 6 samples.

Results

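The 10 genes described here encode enzymes of glycolysis for which the mouse has a sperm isoform, a somatic isoform, or both. The sperm isoforms are Gapdhs, Ldhc, Pgk2 and Pgam2, and the somatic isoforms are Gapdh, Ldha, Ldhb, Pgk1, Pgam1 and Hk1. Hk1 is counted as somatic by its gene only. It also has germ cell transcripts, and its probes were not sorted into somatic and germ cell ones. The 10 genes were chosen by name, and every gene-detecting probe that the array files list under those names was used. This gave 19 probes for the 10 genes, 5 for the sperm and 14 for the somatic isoforms, out of 41174 probes with 27376 gene names.

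RNA was taken from whole testes of male mice and measured on 1-colour Agilent arrays with 1 array per animal, to ask what the loss of Prss54, a serine protease family gene, does to expression in this organ. The 3 control animals were wild type (WT) and the other 3 were Prss54 knockouts (Prss54KO). All 6 shared a mixed 129Sv/C57BL/6 background and an age of 6 to 8 weeks. The labels name neither the disrupted part of Prss54 nor the litters. With 1 array per animal, p-values measure only the spread between these animals together with that between their arrays.

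Glycolysis turns glucose into pyruvate, and pyruvate can be turned into lactate. Hexokinase starts the pathway, glyceraldehyde-3-phosphate dehydrogenase carries out its oxidation step, phosphoglycerate kinase makes ATP, phosphoglycerate mutase moves the remaining phosphate, and lactate dehydrogenase interconverts pyruvate and lactate. During spermatogenesis the body-wide versions of several of these enzymes give way to versions made in meiotic and later germ cells. GAPDHS is bound to the fibrous sheath of the sperm tail, LDHC is the testis form of lactate dehydrogenase, and PGK2 is encoded by an autosomal retrogene of X-linked Pgk1. PGAM2 is the mutase of muscle and of sperm, and Hk1 also has transcripts specific to germ cells.

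Because isoforms are alike in sequence, the probes show what separates a sperm from a somatic signal. The probes for Gapdhs (A_51_P265695, at chr7:31514958-31515392 on the minus strand of mm9) and Gapdh (A_52_P479958, at chr6:125112105-125112274, minus strand) align with each other. They are shown because they are the closest pair of a sperm and a somatic probe found among the members, with capitals on the bases that differ:
Gapdhs: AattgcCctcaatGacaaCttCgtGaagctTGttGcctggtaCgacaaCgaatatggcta
Gapdh: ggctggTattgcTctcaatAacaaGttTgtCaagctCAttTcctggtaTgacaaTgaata

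Base 1 of the Gapdhs probe aligns with base 7 of the Gapdh probe, and 43 of the 54 aligned bases are identical (79.6%), with 11 that differ. Both probes have genome ranges longer than their own 60 bases, 435 for Gapdhs and 170 for Gapdh, so each matches the genome in more than 1 block. Gapdhs has another probe (A_52_P356170, chr7:31521996-31522833, minus strand), whose 60 bases match within a range of 838. It is shown because it reports the same gene from another place, with no capitals:
Gapdhs, other probe: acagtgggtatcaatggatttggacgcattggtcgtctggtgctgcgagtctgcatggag

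Hk1 has 6 probes. The one below (A_52_P87141, chr10:61821119-61821178, minus strand) lies nearest to the 5′ end of the gene. It is shown because it is listed under 1 of the 2 Hk1 transcripts that the files name, whereas the other 5 are listed under both:
Hk1: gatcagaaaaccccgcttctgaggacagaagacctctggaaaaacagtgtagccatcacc

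The exon or untranslated region under each probe is not given, since no mm9 annotation was used here. Some somatic probes can also read copies of their gene. The transcripts that the files list for both Gapdh probes include, by RefSeq's names, the copies Gm5069 and Gm12070, and those for both Ldha probes include Gm13315. Both Pgk1 probes (chr3:57906703-57906762 and chr3:57906681-57906740) are placed by the files on chromosome 3, although Pgk1 itself is X-linked, and they share 38 bases. These probes report the named gene together with any expressed copy.

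Between 66.2% and 74.8% of the gene spots on an array were well above background, and none of the 43379 was saturated. Prss54 was checked first, although whether its probe lies in the disrupted part of the gene is not known here. Its signals were 22677, 24153 and 26120 intensity units in WT 1, 2 and 3 and 7381, 9466 and 8416 in Prss54KO 1, 2 and 3. The groups did not overlap and the knockout mean was 2.96-fold lower, with a log2 difference of -1.57 (SE 0.10), an adjusted p of 0.121 by limma and an exact permutation p of 0.1, the smallest that 3 against 3 animals allow. By limma with Benjamini-Hochberg adjustment, 0 of the 28913 probes tested were called at 0.05 (0%), and 936 (3.24%) had an unadjusted p under 0.05, 1.73% of all probes higher and 1.5% lower in the knockouts. The arrays lay on 3 slides. Slide 3 carried WT 1 and WT 2, slide 2 carried WT 3, Prss54KO 1 and Prss54KO 2, and slide 1 carried Prss54KO 3.

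All 19 probes of the glycolysis isoforms were well above background on all 6 arrays, so every member was measured in every animal. Signals are printed before scaling and log2 differences after it, so the order of close values can differ between them. No member was called between the genotypes, with an adjusted p of 0.999 by limma for each of the 19. None had an unadjusted p under 0.05, and for none were the 3 knockout values all above or all below the 3 WT values, against 7.77% of all probes tested. All 19 log2 differences lay between -0.08 and 0.18, with 12 above 0 and 7 below. Their median was 0.021, beside 0.0058 over all probes, of which 52.8% lay above 0 and 47.2% below. By the brightest probe of each of the 10 genes, 5 lay above 0 and 5 below, with a median of 0.00067. The split of 12 to 7 was 10 to 9 with quantile normalization, median scaling or the authors' table, and ran from 6 to 13 without Prss54KO 1 to 16 to 3 without Prss54KO 3, so the members had no stable direction. Every member had a log2 difference smaller than 0.2 in size, as did 89.6% of all probes. In whole testis a change in the number of cells of a type and a change in RNA per cell cannot be told apart.

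**Figure D1:**
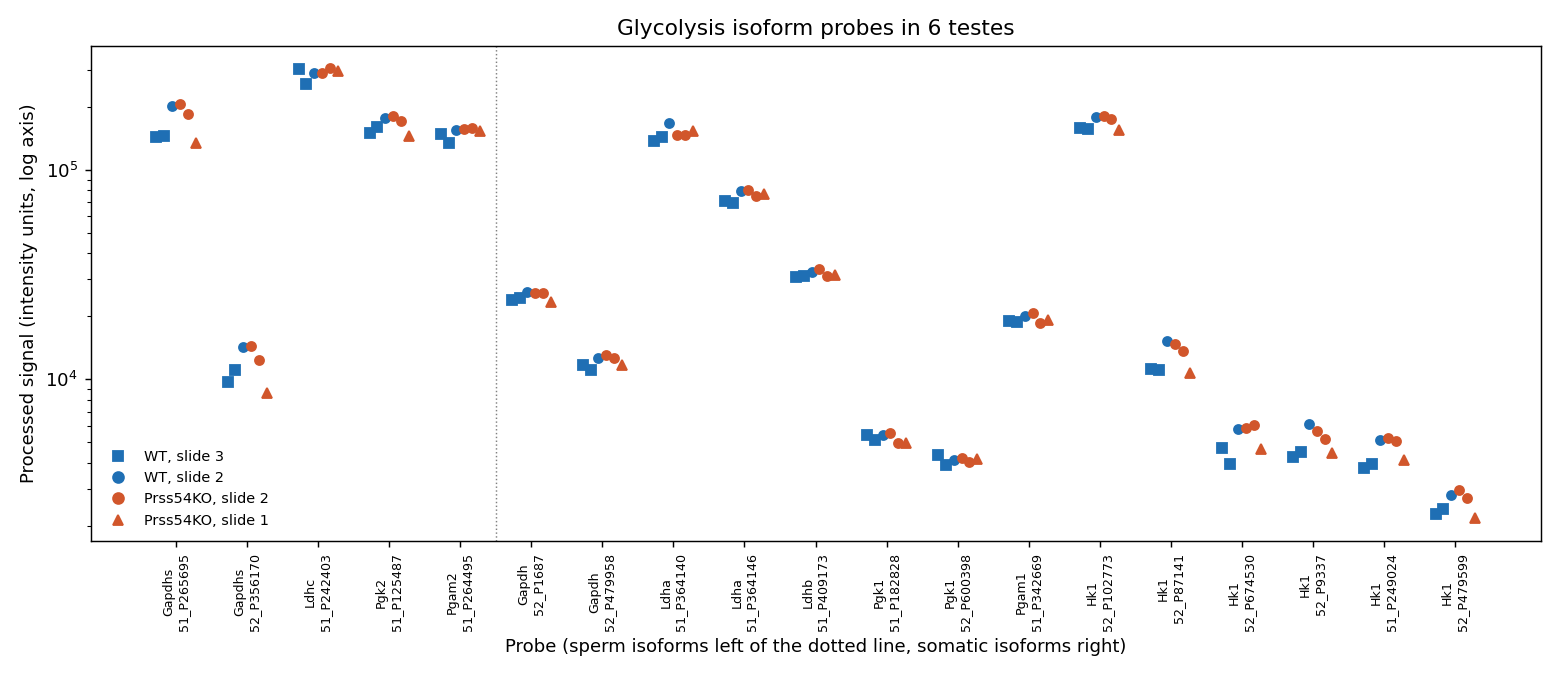
Signal of each of the 19 glycolysis isoform probes in intensity units on a log axis, with 1 point per mouse, coloured by genotype and shaped by slide, and with sperm isoforms before somatic ones. Both genotypes overlap for every probe, and the 6 points spread most for the Gapdhs probes and 5 of the Hk1 probes. Signals run from 2170 for a Hk1 probe to 305846 for Ldhc.

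The sperm isoforms gave strong signals in testes of both genotypes. Ldhc, the testis lactate dehydrogenase (chr7:54133274-54133333, plus strand), gave 305442, 258532 and 290128 in WT 1 to 3 and 292321, 305846 and 298815 in Prss54KO 1 to 3. The means were 284701 ± 23921 (SD, n = 3) and 298994 ± 6764 (SD, n = 3). The knockout values lay inside the WT range except Prss54KO 2, which exceeded the highest WT value slightly. The log2 difference was 0.043 with a SE of 0.07, a 95% interval of -0.13 to 0.22 and an exact permutation p of 0.5.

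Pgk2, the autosomal phosphoglycerate kinase of germ cells (chr17:40344145-40344204, minus strand), gave 149565, 160961 and 176911 in WT 1 to 3. In Prss54KO 1 to 3 it gave 181996, 172274 and 146068. The highest and the lowest of the 6 values both came from knockout testes, so the groups overlapped over the whole WT range. The group means were 162479 ± 13736 and 166780 ± 18584 (SD, n = 3 each), and the log2 difference was 0.0043 with a 95% interval of -0.24 to 0.25.

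Pgam2, the mutase of muscle and sperm (chr11:5701822-5703040, minus strand), gave 148055, 134363 and 154991 in WT and 157356, 158967 and 153842 in Prss54KO. In signal WT 3 was above Prss54KO 3, and after scaling WT 1 was, so the groups overlapped narrowly. The means were 145803 ± 10497 and 156722 ± 2621 (SD, n = 3 each). The log2 difference of 0.076 (SE 0.06, 95% interval -0.06 to 0.21) had the smallest unadjusted p of all 19 probes, 0.228 by limma, with an exact permutation p of 0.2. Since Pgam2 is also the muscle isoform, skeletal muscle markers were read beside it. Of 6 such genes 4 were measured on enough arrays to be tested, Ckm was above background on 1 array and Tnnt3 on 2, and the summed signal of the list was 642 to 794 in WT and 682 to 705 in Prss54KO.

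Gapdhs, the sperm dehydrogenase, varied more between animals than the other sperm isoforms. Its brighter probe, the sequence printed above with capitals, gave 144403, 145306 and 202243 in WT 1 to 3 and 206336, 184425 and 134075 in Prss54KO 1 to 3. Each of these is the geometric mean of up to 10 spots on the array. High values occurred in WT 3, Prss54KO 1 and Prss54KO 2, and low values in the other 3 mice of both genotypes. The means of 163984 ± 33136 and 174945 ± 37052 (SD, n = 3 each) differed by 0.058 on the log2 scale, with a 95% interval of -0.41 to 0.52. The other Gapdhs probe gave 9753, 11096 and 14336 in WT and 14482, 12407 and 8573 in Prss54KO. The same 3 mice were high on it, and its log2 difference was -0.034 with a 95% interval of -0.57 to 0.50. With intervals this wide, a moderate genotype difference in Gapdhs was not detectable with 3 animals per group.

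No somatic partner was called between the genotypes, and the values of both genotypes overlapped for each. Gapdh, the body-wide dehydrogenase and a common reference gene, gave 23870, 24419 and 26004 in WT and 25886, 25706 and 23369 in Prss54KO at its brighter probe (chr6:125112515-125112573, minus strand). Its log2 difference was -0.018 (95% interval -0.18 to 0.14), and that of the probe printed above was 0.048 (95% interval -0.11 to 0.21). At the printed probe the WT values were 11711, 11116 and 12606 and the knockout values 13070, 12637 and 11698. Prss54KO 3 lay among the WT values there, so the groups overlapped.

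Ldha, the lactate dehydrogenase subunit typical of muscle, had its brighter probe at chr7:54110889-54110948 on the plus strand. It gave 137504, 143041 and 167762 in WT and 146721, 147185 and 152992 in Prss54KO, so WT held both the highest and the lowest value. The log2 difference was -0.030 (95% interval -0.19 to 0.13). The other Ldha probe, within chr7:54109426-54110355, gave 71269, 69581 and 79780 in WT and 80094, 74864 and 76717 in Prss54KO, with a log2 difference of 0.042 (95% interval -0.09 to 0.18). Ldhb, the subunit typical of heart (chr6:142438838-142438897, minus strand), gave 30678, 31069 and 32662 in WT and 33781, 30988 and 31498 in Prss54KO. Its genotype means of 31469 ± 1051 and 32089 ± 1487 (SD, n = 3 each) were within each other's spread, with a 95% interval of -0.14 to 0.13 for the log2 difference.

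Pgk1, the kinase whose gene is on the X chromosome, gave 5436, 5117 and 5407 in WT and 5543, 4943 and 4967 in Prss54KO, as geometric means of up to 10 spots. Its log2 difference of -0.079 (95% interval -0.24 to 0.08) was the lowest among the 19 probes, against SDs of the level of 0.045 in WT and 0.093 in Prss54KO, with an exact permutation p of 0.3. The overlapping Pgk1 probe gave 4327, 3880 and 4105 in WT and 4214, 4004 and 4140 in Prss54KO, with a log2 difference of -0.024. Pgam1, the mutase found in most tissues (chr19:41992898-41992957, plus strand), gave 19019, 18687 and 19995 in WT and 20820, 18622 and 19217 in Prss54KO. Prss54KO 1 was the highest and Prss54KO 2 the lowest of those 6, and the 95% interval of the log2 difference was -0.15 to 0.14.

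All 6 Hk1 probes had knockout means above the WT means, by 0.02 to 0.18 on the log2 scale, with no exact permutation p below 0.3. That direction turned at the brightest probe (A_52_P102773) with quantile normalization and at 2 other probes with slide as a fixed block. Without WT 1, without Prss54KO 1 or without Prss54KO 2 it turned at A_52_P102773, A_52_P87141, A_52_P9337 and A_52_P479599. Without WT 2 it turned at A_52_P87141 and A_52_P9337. At A_52_P674530 and A_51_P249024 it held in every alternative. Hk1 encodes a hexokinase, the enzyme that starts the pathway. Its brightest probe (chr10:61731916-61731975) gave 157917, 156707 and 180012 in WT and 180610, 175900 and 155039 in Prss54KO. The probe printed above gave 11217, 11041 and 15264 in WT and 14710, 13625 and 10730 in Prss54KO. At both probes WT 3, Prss54KO 1 and Prss54KO 2 were the high animals, as for Gapdhs. The largest genotype difference, 0.18 with a 95% interval of -0.19 to 0.55, was at the probe at chr10:61732735-61732794, where WT gave 4697, 3932 and 5760 and Prss54KO gave 5837, 6073 and 4644. The 3 remaining Hk1 probes (chr10:61778201-61778260, chr10:61734377-61734436 and chr10:61731603-61731633) had log2 differences of 0.02, 0.14 and 0.03. All Hk1 probes lie on the minus strand.

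**Figure D2:**
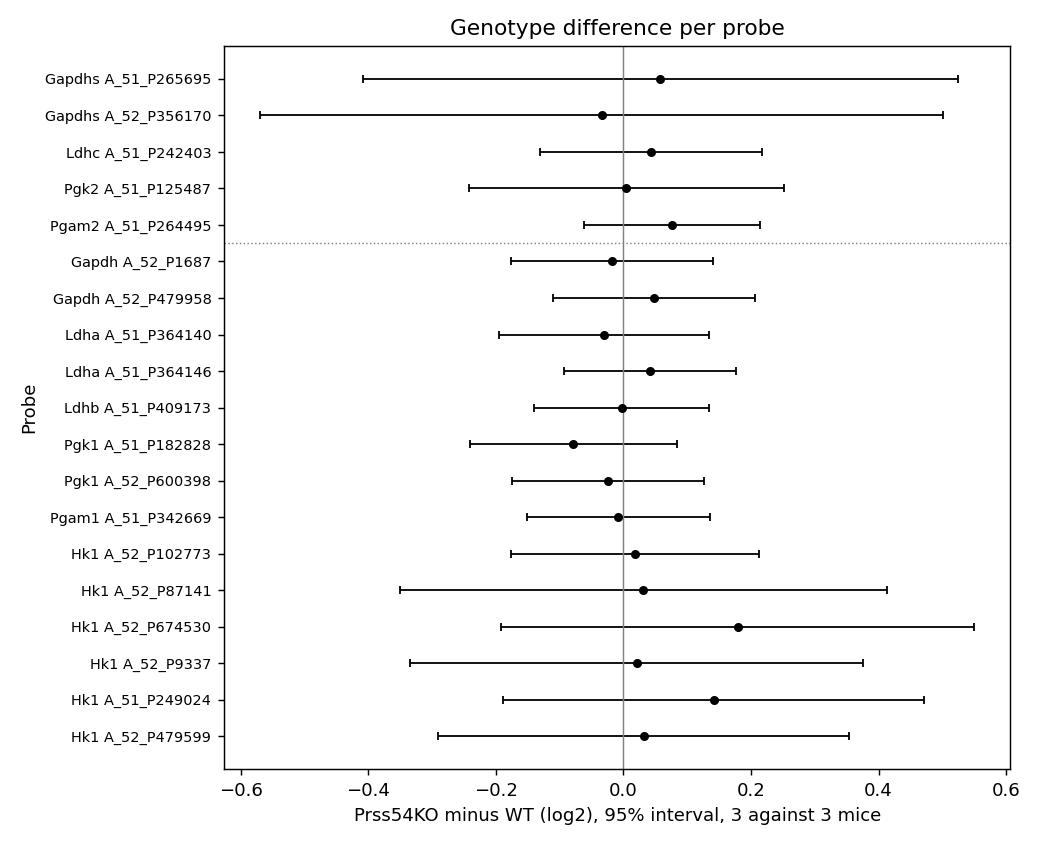
Log2 difference, Prss54KO minus WT, of each glycolysis isoform probe, with the 95% interval of limma's fit as a bar and 0 as a line. All 19 intervals include 0; those of Gapdhs and of 5 of the Hk1 probes are the widest, and all point estimates lie between -0.08 and 0.18.

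The level of a sperm isoform cannot be set against that of its somatic partner on this platform. Signals of different probes are on different scales even within 1 gene. In the same 6 testes the Hk1 probes gave from 2170 to 180610 units and the Gapdhs probes from 8573 to 206336. The signals of Ldhc, Pgk2 and Pgam2 ran from 134363 to 305846, those of Gapdh from 11116 to 26004, those of Pgk1 from 3880 to 5543, those of Pgam1 from 18622 to 20820 and those of Ldha from 69581 to 167762. These ranges are given with no order between genes. What can be followed is how the ratio of a sperm probe to its somatic partner moved from mouse to mouse, using the brightest probe of each gene.

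The ratios differed little between the genotype means, by 0.046 to 0.084 on the log2 scale. As log2 ratios relative to the WT mean, Ldhc over Ldha was 0.22, -0.08 and -0.14 in WT 1 to 3 and 0.06, 0.12 and 0.03 in Prss54KO 1 to 3, a difference between the group means of 0.073 (SD 0.19 in WT, 0.05 in Prss54KO). Ldhc over Ldhb differed by 0.046 (SD 0.13 and 0.10). Pgam2 over Pgam1 differed by 0.084 (SD 0.06 and 0.09), and Pgk2 over Pgk1 by 0.083 (SD 0.13 and 0.12). Gapdhs over Gapdh differed by 0.076 between genotypes (SD 0.22 and 0.24), with values of -0.11, -0.14 and 0.25 in WT and 0.29, 0.13 and -0.19 in Prss54KO. In each of the 5 pairs the genotype ranges overlapped, and the Gapdhs ratio had the widest spread within both genotypes. Single mice set the size of these differences. Without each mouse in turn, Gapdhs over Gapdh ran from -0.028 without Prss54KO 1 to 0.21 without Prss54KO 3, and Ldhc over Ldha from 0.0025 without WT 3 to 0.18 without WT 1. Ldhc over Ldhb ran from -0.013 (without WT 2) to 0.12 (without WT 1), Pgk2 over Pgk1 from 0.0091 (without WT 1) to 0.15 (without Prss54KO 3), and Pgam2 over Pgam1 from 0.039 (without Prss54KO 2) to 0.13 (without Prss54KO 1). On slide 2 alone Gapdhs over Gapdh differed by -0.040 and Ldhc over Ldha by 0.23.

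**Figure D3:**
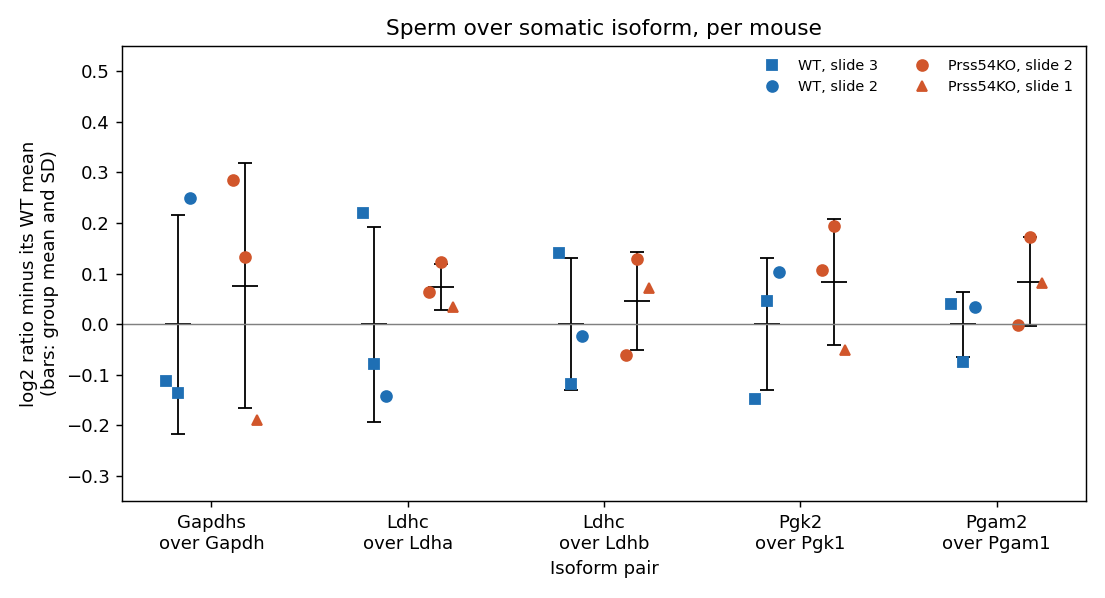
Log2 ratio of each sperm isoform to its somatic partner relative to the WT mean of that pair, by genotype, with 1 point per mouse shaped by slide and bars for the mean and SD (n = 3). The genotype ranges overlap in all 5 pairs, and the 3 mice of slide 2 are the 3 highest for Gapdhs over Gapdh, at 0.13 to 0.29.

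Gapdhs and Hk1 differed more between slides, and with them between particular animals, than between genotypes. Both Gapdhs probes and all 6 Hk1 probes were higher on every array of slide 2 (WT 3, Prss54KO 1 and Prss54KO 2) than on every other array. This was noticed in the values, so the slide differences are given as a description, from a fit that holds the genotype and slide 2 against the other slides. Of the 19 member probes, 10 were above all other arrays on slide 2, against 9.88% of all probes tested. They were both Gapdhs probes, Pgk2, 1 Gapdh probe and the 6 Hk1 probes, and the 6 Hk1 probes report 1 gene and are not independent. On the other side, 9.5% of all probes, and 0 of the 19, were below all other arrays on slide 2. Of all probes 2 (0.00692%) passed 0.05 after limma's Benjamini-Hochberg adjustment, and no member was among them.

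For the brighter Gapdhs probe, slide 2 was higher by 0.47 on the log2 scale (SE 0.07), 1.39-fold. For the other Gapdhs probe it was higher by 0.52 (SE 0.11), 1.43-fold. The Hk1 probe printed above was higher by 0.39 (SE 0.06), 1.31-fold. The remaining Hk1 probes were higher by 0.16 to 0.35. Within slide 2, Gapdhs in the 2 knockouts differed from WT 3 by 0.06 and -0.09 at the brighter probe and by 0.05 and -0.16 at the other, so both genotypes were high there.

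The other isoforms spanned slide differences from -0.04 to 0.20. Ldhc differed by -0.014 between slide 2 and the others, Pgam2 by 0.05, Ldhb by 0.02, Pgam1 by 0.02 and the Pgk1 probes by 0.02 and -0.04. The Ldha probes differed by 0.062 and 0.059 and the Gapdh probes by 0.087 and 0.10, the last with every slide 2 array above the others. Pgk2 was higher on slide 2 by 0.20, more than the brightest Hk1 probe at 0.16. After quantile normalization the last pair became 0.05 and 0.02, whereas Gapdhs stayed at 0.37 and 0.48 and the other 5 Hk1 probes at 0.27 to 0.35. The median of the 19 slide differences was 0.10, against -0.01 over all probes. By the brightest probe of each of the 10 genes the median was 0.056. Of those 10 probes, 3 were higher on every array of slide 2 than on every other array.

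Spermatid markers were read beside these values, since Gapdhs and germ cell Hk1 transcripts are made in spermatids. All 5 were above background on all arrays, 4 of the 5 were higher on slide 2, and their slide differences ran from -0.04 to 0.19. Their summed signal before scaling was 1802090, 1759080 and 1773380 in WT 3, Prss54KO 1 and Prss54KO 2, the mice of slide 2. It was lower, at 1695190, 1600990 and 1687680, in WT 1, WT 2 and Prss54KO 3. After scaling, the median level of the 5 markers relative to the WT mean was 0.038, -0.0076 and 0.041 in WT 3, Prss54KO 1 and Prss54KO 2. It was -0.0046, -0.035 and -0.072 in WT 1, WT 2 and Prss54KO 3. The split was therefore kept except that Prss54KO 1 lay slightly below WT 1. The part of spermatids in the Gapdhs and Hk1 values was not tested. Slide 2 and the 3 mice on it cannot be told apart.

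**Figure D4:**
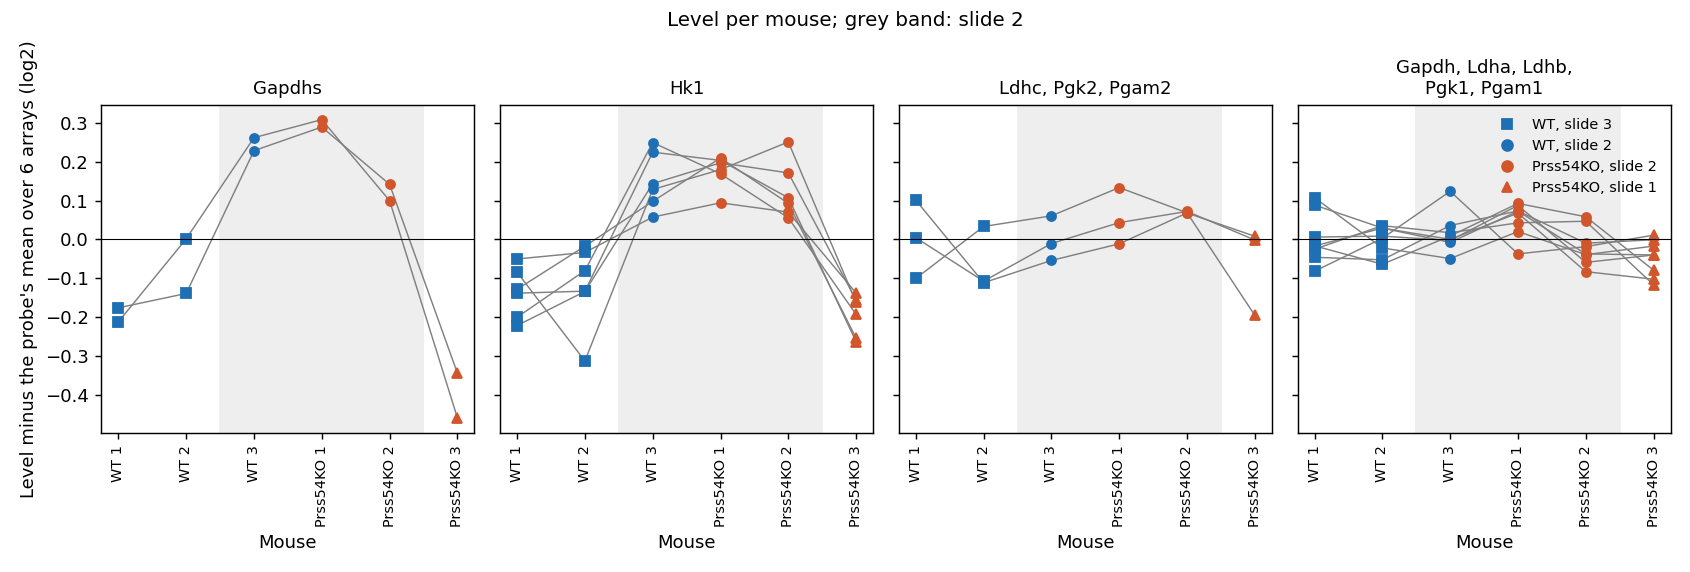
Level of each probe minus its own mean over the 6 arrays (log2), by mouse, in panels for Gapdhs, Hk1, the other sperm isoforms and the other somatic isoforms, with a grey band over the mice of slide 2. Both Gapdhs probes and all 6 Hk1 probes lie higher on the 3 arrays inside the band than on any outside it, in both genotypes.

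The rest of the pathway was read from a fixed list of 35 genes, each by its brightest probe. All 35 were tested, 24 had a difference above 0 and 11 below, and none was called by limma. That split, against 52.8% above 0 over all probes, was 19 to 16 with quantile normalization, median scaling or the authors' table and 18 to 17 with slide as a fixed block. Without each mouse in turn it ran from 18 to 17 (without Prss54KO 1) to 24 to 11 (without WT 3). Of 23 other glycolysis genes, 19 lay above 0 and 4 below, with a median log2 difference of 0.031 and none at an unadjusted p under 0.05. Of 12 genes for the entry of pyruvate into mitochondria, 5 lay above 0 and 7 below, with a median of -0.011 and 1 at an unadjusted p under 0.05. Of the germ cell copies on these lists, Aldoart1 and Aldoart2, retrogenes of aldolase A, differed by -0.03 (SE 0.12) and 0.02 (SE 0.09). Pdha2, the testis pyruvate dehydrogenase subunit, differed by -0.03 (SE 0.05), and Eno4, the enolase of the sperm tail, by 0.03 (SE 0.06). Ldhal6b, a testis lactate dehydrogenase copy named after its values were seen, had the lowest difference of the 23, -0.082 (SE 0.05), with an unadjusted p of 0.154 and an adjusted p of 0.999 by limma. Its signals were 84645, 79259 and 86561 in WT and 82318, 79323 and 79881 in Prss54KO. They overlapped before scaling and not after it.

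The 3 genes with the smallest unadjusted p on the lists were Pdk4, Pklr and Ldhd, each with an adjusted p of 0.999 by limma. Pdk4, a kinase that switches off pyruvate dehydrogenase, gave 193.3, 150.1 and 122.7 units in WT and 225.4, 239.8 and 253.5 in Prss54KO. Its groups did not overlap, and its log2 difference was 0.62 with a SE of 0.18 and an unadjusted p of 0.0139. Without each mouse in turn the difference was 0.43 to 0.80. On slide 2 alone it was 0.96, but the only WT mouse there was WT 3, which had the lowest Pdk4 signal of all. Pklr, the pyruvate kinase of liver and red cells, gave 44.2, 47.9 and 78.4 in WT and 83.4, 68.4 and 86.9 in Prss54KO. Its log2 difference of 0.50 (unadjusted p of 0.0518) was -0.01 on slide 2 alone. Ldhd, the lactate dehydrogenase of the D form, differed by 0.16 (SE 0.07), with 264.1, 250.5 and 254.2 in WT and 306.4, 268.8 and 302.1 in Prss54KO. Its groups were apart in signal but overlapped after scaling.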

How the data were processed

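Total RNA of 6 mouse testes was labelled with Cy3 and hybridised to 1-colour arrays, 1 per mouse. The deposited scanner files hold spot intensity on a linear scale, after background treatment by the scanner software. Per the file headers this was Agilent Feature Extraction, version 10.7 per the submitters' processing notes, and probe positions are on mm9. The authors' deposited series table holds log2 values. It was used only as an alternative, and no source used here names its software.

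Control spots and outlier spots (86 to 142 per array) were left out. Each array's processed signals were put on the log2 scale and shifted by their 75th percentile, and spots of 1 probe were averaged on the log2 scale. Printed signals are the linear values before scaling. A probe entered the fit if 3 or more of the 6 arrays marked it as well above background. The genotype fit used limma 3.58.1 (R 4.3.3) through lmFit and eBayes, two-sided and with no covariate, and Benjamini-Hochberg adjustment over all 28913 probes at a threshold of 0.05. Single probes also had a two-sided exact permutation test over the mice. The genotype fit was tested on simulated levels with known changes and no slide differences. The number of arrays limits the precision.

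Array pairs correlated at r of 0.994 to 0.996 over probes, and no 2 arrays held the same values. RefSeq's table (GRCm38.p6) served for names only, and it gave the same symbol for all 19 member probes. Members and lists were chosen with earlier results of these data known. Named genes were all members, from the pathway lists the 3 with the smallest unadjusted p and 4 germ cell copies, Prss54, and the 2 genes most alike to each sperm isoform over the arrays. Alternatives changed scaling, background correction, filter, input table, slide, replicate block, variance model and each left-out mouse. The comparison of slide 2 with the other slides was added after the values were seen.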

Additional observations from a re-analysis of the deposited data

How the results depend on the processing

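No member was called under any of the 19 alternatives to the genotype fit, and the lowest adjusted p of a member by limma in them was 0.843. The median difference of the members ran from -0.04 without Prss54KO 1 to 0.10 without Prss54KO 3. Over all probes limma called 0, but 1 with normexp (Prss54), 1 with the filter on all 6 arrays (Prss54), 1 with slide as a fixed block (Klf1) and 2 with an intensity trend and robust variance (Prss54 and Cngb1); leaving out each mouse gave 0 to 0, and 575 (without WT 1) to 1782 (without WT 3) probes at an unadjusted p under 0.05. The replicate block called 0 probes, with 1127 at an unadjusted p under 0.05 by limma, and no member was called in that fit. Same-numbered animals had correlations of -0.044, 0.02 and -0.15, which show no pairing of the mice. They cannot exclude pairing either, since same-numbered animals lay on different slides.

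The count of 10 member probes higher on slide 2 became 8 with quantile normalization or the authors' table, 9 with normexp and 12 with median scaling, and 10 to 12 without each mouse. The log2 ratio of Ldhc to Ldha differed by 0.23 on slide 2 alone, against 0.073 over all mice.

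Small differences changed sign, and none was called after it did. With quantile normalization Pgk2 was -0.022, the brightest Hk1 probe -0.019 and Aldoart2 -0.0098; the authors' table gave -0.024, -0.020 and -0.011 and median scaling -0.015, -0.0020 and -0.0032. With normexp the dimmer Gapdhs probe was 0.015, Pgk2 -0.0092, Ldhb 0.0079, Pgam1 0.012, the Hk1 probe A_52_P9337 -0.025 and Eno4 -0.019. With slide as a fixed block, as on slide 2 alone, the brighter Gapdhs probe was -0.013, the brighter Gapdh probe 0.028, the dimmer Ldha probe -0.0039, Ldhb 0.025, the dimmer Pgk1 probe 0.040, Pgam1 0.017, the printed Hk1 probe -0.069, A_52_P9337 -0.14, Aldoart1 0.10 and Pklr -0.015. With slide as a random block (correlation 0.135) Pgk2 was -0.0017 and A_52_P9337 -0.011, and with array weights the dimmer Gapdhs probe was 0.060 and Aldoart1 0.0060. Without each mouse in turn the ranges were -0.072 to 0.24 and -0.20 to 0.19 for the Gapdhs probes, -0.0017 to 0.10 for Ldhc, -0.061 to 0.10 for Pgk2, -0.046 to 0.036 for the brighter Gapdh probe, -0.078 to 0.025 for the brighter Ldha probe, -0.040 to 0.016 for Ldhb, -0.055 to 0.024 for the dimmer Pgk1 probe, -0.054 to 0.020 for Pgam1, -0.025 to 0.091, -0.063 to 0.17, -0.074 to 0.15 and -0.065 to 0.17 for the Hk1 probes A_52_P102773, A_52_P87141, A_52_P9337 and A_52_P479599, -0.11 to 0.10 for Aldoart1 and -0.034 to 0.099 for Aldoart2. The cause was not tested.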

Other observations

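The level patterns most like those of the sperm isoforms over the 6 arrays were found by Pearson's r among the probes well above background on all arrays, with no p, since 22168 or more probes were searched with 6 points each. For Gapdhs they were those of Sesn1 (r = 0.999) and Spata20 (r = 0.998), and 304 probes had r over 0.95. For Pgk2 they were Ghitm and Nt5c1b (both r = 0.993), with 154 probes over 0.95. Ldhc had 9 such probes, led by Rapgef1 (r = 0.994) and Uqcrq (r = 0.987), and Pgam2 had 28, led by Poc1a (r = 0.995) and Rbm18 (r = 0.984). All points share the slide, the labelling and the scaling of their array.

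Marker lists of the cells a testis sample can hold were read in the same fit, and limma called none of their genes, with 1 epididymal and 1 endothelial gene at an unadjusted p under 0.05. The median log2 difference, Prss54KO minus WT, was -0.013 over 5 spermatid genes, 0.034 over 5 spermatocyte genes, -0.0036 over 5 Sertoli cell genes, -0.06 over 4 Leydig cell genes and -0.03 over 5 peritubular and smooth muscle genes. It was -0.06 over 4 skeletal muscle genes, -0.06 over 4 macrophage genes, -0.05 over 3 adipocyte genes, -0.15 over 2 endothelial genes and 0.36 over 2 epididymal genes, with Lcn8 and Crisp1 above background on 0 arrays. Some of these medians cover a wide spread. By the brightest probe of each gene, the Leydig cell genes ran from -0.58 for Star to 0.19 for Hsd3b6. The adipocyte genes ran from -0.77 for Fabp4 to 0.23 for Adipoq. Probes of 1 gene could also differ, as the 3 Cyp11a1 probes ran from -1.08 to -0.02. The 3 red blood cell genes were lower in the knockout mean, with a median of -0.45 and summed signals of 13553 to 34674 in WT and 15106 to 19617 in Prss54KO, which overlap.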
